A study of Mus musculus with 8 samples.

Results

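The genes described here are 10 members of the fibroblast growth factor (FGF) family, of 23337 gene symbols in the deposited values. They comprise the ligands Fgf1, Fgf2, Fgf9, Fgf18 and Fgf21, the intracellular FGF homologous factor Fgf13, the receptor tyrosine kinases Fgfr1, Fgfr2 and Fgfr3, and the receptor-like Fgfrl1. The members were chosen by gene name and with their levels and differences in these same libraries known. Their difference between the groups is therefore given as a description, with an interval and no p-value. The libraries are RNA-seq of the MOE line, oviductal epithelial cells of FVB mice. The oviduct is the mouse counterpart of the fallopian tube. For 4 libraries the cells lay on 3D collagen gels, and for 4 on 2D collagen. Both groups were taken off the dish with trypsin at confluence, then kept for 6 h on collagen in MOE medium that lacked EGF. No genetic change or drug is named for either group, and the labels do not say whether replicates were separate cultures, so the spread between libraries may be technical.

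FGF ligands bind receptor tyrosine kinases together with heparan sulphate, and the activated receptors signal through the adaptor FRS2 to the RAS and ERK cascade. That cascade induces its own brakes, the Sprouty, Spred and DUSP proteins. FGF21 is a hormone that needs the co-receptor beta-klotho, FGF13 stays in the cell and binds sodium channels, and FGFRL1 binds FGFs but lacks the kinase domain. In the mouse reproductive tract, FGF signals from the stroma act on epithelial FGFR2 in the Müllerian duct, from which the oviduct arises.

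Promoter sequence from RefSeq (GRCm38.p6) was found for 8 of the 10 members. The 250 bases before the start are shown for 3 of them, on the gene's strand: Fgf18 for its large difference, Fgfrl1 as an abundant member lower on 3D collagen, and Fgf21 as a low, stress-inducible ligand. Capitals mark matches to any of 8 motifs searched on both strands.
Fgf18, chr11:33147401-33147650, minus strand: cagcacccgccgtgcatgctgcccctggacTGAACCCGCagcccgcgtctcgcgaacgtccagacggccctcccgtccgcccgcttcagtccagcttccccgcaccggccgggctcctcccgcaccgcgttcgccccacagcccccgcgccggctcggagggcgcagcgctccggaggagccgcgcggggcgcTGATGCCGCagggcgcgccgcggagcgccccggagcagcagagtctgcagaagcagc
Fgfrl1, chr5:108693979-108694228, plus strand: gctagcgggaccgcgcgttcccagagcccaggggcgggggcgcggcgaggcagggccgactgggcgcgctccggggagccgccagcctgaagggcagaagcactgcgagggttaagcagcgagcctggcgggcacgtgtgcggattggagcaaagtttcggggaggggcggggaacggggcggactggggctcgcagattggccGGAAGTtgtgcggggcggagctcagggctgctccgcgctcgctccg
Fgf21, chr7:45615491-45615740, minus strand: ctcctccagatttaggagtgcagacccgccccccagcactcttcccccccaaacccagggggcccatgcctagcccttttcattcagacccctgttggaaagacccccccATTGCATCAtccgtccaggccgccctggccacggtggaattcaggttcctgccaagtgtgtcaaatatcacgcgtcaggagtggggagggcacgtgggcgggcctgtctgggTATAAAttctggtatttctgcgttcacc

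The Fgf18 promoter is GC rich, with 77.2% G and C and 37 CpG pairs, an observed to expected CpG ratio of 1.02 against a median of 0.37 over 32851 promoters. Its capitals are 2 matches to TGANNNNGC, a loose form of the antioxidant response element of NRF2 and Maf proteins, 220 and 57 bases before the start. That loose form, which leaves the base after TGA free, occurs in 35.2% of all promoters. The Fgfrl1 promoter has a CpG ratio of 0.95 and a match to the ETS motif GGAAGT, found in 19.7% of promoters, 46 bases before the start. The Fgf21 promoter has a CpG ratio of 0.41, a TATAAA match 28 bases before the start (12.4% of promoters) and a match on the other strand to the ATF4 composite motif TGATGNAAN 140 bases before it (3.44% of promoters). The CpG ratio was 0.69 and 0.76 at the starts of Fgfr3 and 0.17 at that of Fgfr2. The other motifs searched were GGAATG of TEAD factors (12.6% of promoters), TGANTCA of AP-1 (6.75%), TGACGT of CREB (6.47%) and the CArG box of SRF (1.47%). None of these 4 lies in the 3 windows shown, and no matches there overlap each other. A match is a description of the letters and not a binding site.

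The libraries held 15692699 to 25862036 reads, which covered 14064 to 14598 genes. The epithelial transcription factor Pax8 averaged 9494 ± 1518 normalized counts on 3D collagen and 10271 ± 1404 on 2D collagen (SD, n = 4 each), where a normalized count is a read count divided by 1 size factor per library. The keratin Krt8 averaged 20133 ± 3079 on 3D collagen and 34270 ± 5557 on 2D collagen. The adhesion genes Cdh1 (61.8 ± 35.5 on 3D and 64.0 ± 32.1 on 2D) and Epcam (10.2 ± 10.3 on 3D and 11.4 ± 12.6 on 2D) were low in both groups, so the epithelial label rests on Pax8 and the keratins. The summed level of 11 epithelial markers was 8599 to 10703 CPM (reads scaled to a common library total) on 3D collagen and 10679 to 11877 CPM on 2D collagen. That of 7 fibroblast markers was 4.13 to 17.2 CPM on 3D collagen and 3.25 to 19.4 CPM on 2D collagen. The sum of 5 smooth muscle markers was 242 to 890 CPM on 3D and 433 to 2154 CPM on 2D. It came almost all from Acta2 (mean 619 CPM on 3D and 1234 CPM on 2D), while Myh11 averaged 0.656 CPM on 3D and 0.434 CPM on 2D. For 5 endothelial markers the sum was 17.2 to 38.9 CPM on 3D and 14.2 to 29.3 CPM on 2D. Most of it was Kdr (mean 24.6 CPM on 3D and 20.3 CPM on 2D). For 5 leukocyte markers it was 18.7 to 30.3 CPM on 3D and 7.14 to 18.4 CPM on 2D, mostly from Cd68, with Ptprc at no more than 3.73 normalized counts in any library. Of 10 tested epithelial markers 1 fell, Krt8 (log2 difference −0.76, limma adjusted p = 0.0397). That call ended without any 1 library other than 2D replicate 4 (limma adjusted p from 0.0631 to 0.135). The keratins Krt7 and Krt18, named after their values were seen, had log2 differences of −0.41 and −0.43 with groups that did not overlap (limma adjusted p = 0.183 and 0.136). The other tested epithelial markers had overlapping groups and went both ways. Log2 differences were −1.70 for Foxj1 (limma adjusted p = 0.0706), −0.12 for Pax8, −0.11 for Krt19 and −0.08 for Cdh1. They were 0.32 for Esr1, 0.36 for Wt1 and 0.76 for Ovgp1. Of 3 tested fibroblast markers 1 rose, Pdgfra, named after its values were seen (log2 difference 1.73, limma adjusted p = 0.0340). It had 16.6 ± 1.88 normalized counts on 3D collagen and 4.65 ± 2.40 on 2D collagen, from 16 to 18 and 3 to 6 reads per library. The others had overlapping groups, Col1a1 at a log2 difference of −0.73 and Dcn at 0.94 (limma adjusted p = 0.253 and 0.690). The leukocyte sums did not overlap. The part of these markers in the differences of the members was not tested. Liver and intestine transcripts were present in some libraries of both groups, and their values are given beside those of Fgf1. In bulk samples, fewer cells of a type and less RNA per cell cannot be told apart.

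The ligand Fgf18, which signals mainly through the c-type forms of FGFR3 and its relatives, had the largest difference of the 5 members above the level filter, with a mean 10.4-fold lower on 3D collagen. It had 13.6, 15.7, 22.4 and 10.1 normalized counts in 3D replicates 1 to 4, against 178, 173, 165 and 125 in 2D replicates 1 to 4. These values rest on 12, 18, 24 and 11 reads in the 3D libraries and 183, 145, 208 and 102 reads in the 2D libraries. The groups did not overlap, and the highest 3D library lay far under the lowest 2D library. The log2 difference (3D minus 2D, limma on log2(normalized count + 1)) was −3.33 (SE 0.30, 95% interval −4.01 to −2.66). It stayed between −3.52 and −3.04 under all 19 alternatives, and it was −3.27 without the 3 libraries with the most intestine transcripts, where the fit over all genes no longer called it. Fgf18 lies on chromosome 11 from 33116970 to 33147400 (GRCm38, the mm10 build), and no other annotated gene shares its exons. Its promoter is the GC-rich one with 2 matches to the loose form of the antioxidant response element.

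Fgfrl1 and Fgfr1, the most abundant members, were both lower in the mean on 3D collagen, with groups that overlapped. Fgfrl1 (chromosome 5, 108694229 to 108706950) had 1849, 1704, 1818 and 1133 normalized counts in 3D replicates 1 to 4, against 2864, 3675, 3227 and 1847 in 2D replicates 1 to 4. The overlap came from 2D replicate 4, which lay just under 3D replicate 1. The log2 difference was −0.82 (SE 0.24, 95% interval −1.36 to −0.27). Fgfr1 (chromosome 8, 25518759 to 25575718), the receptor kinase best known from mesenchymal cells, had 6400, 7265, 6305 and 8555 normalized counts in the 3D libraries, against 7520, 13363, 10351 and 10773 in the 2D libraries. Here the lowest 2D library, replicate 1, lay under the highest 3D library, replicate 4. The log2 difference was −0.54 (SE 0.20, 95% interval −0.99 to −0.09).

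Fgfr3 and Fgfr2 gave smaller or less certain differences. Fgfr3 (chromosome 5, 33721724 to 33737068) had 19.3, 21.8, 21.5 and 23.8 normalized counts in 3D replicates 1 to 4, against 31.2, 34.6, 26.9 and 38.0 in 2D replicates 1 to 4. The groups did not overlap, and the 3D libraries lay close together. The log2 difference was −0.57 (SE 0.26, 95% interval −1.16 to 0.02), and an antisense gene model shares 13.9% of the exonic bases of Fgfr3, whose reads cannot be told apart without a stated strand setting. After a trend with transcript GC content was removed in each library, it was −0.37. Fgfr2 (chromosome 7, 130162451 to 130266808), the main epithelial FGF receptor, had 745, 788, 928 and 966 normalized counts in the 3D libraries, against 1156, 806, 1279 and 718 in the 2D libraries. The 3D values lay inside the range of the 2D values, and the log2 difference was −0.18 (SE 0.21, 95% interval −0.65 to 0.30).

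Of the 10 members, 5 passed the level filter of 10 normalized counts in at least 4 libraries, and all 5 had log2 differences under 0, with a median of −0.57. Across the 11820 genes tested the median was 0.02 and 48.5% were under 0. In the fit over all genes 1 member, Fgf18, had a limma adjusted p under 0.05, where 3.39% of all tested genes were called lower. The groups did not overlap, with the 3D group lower, for 2 members, where this held for 10.4% of all tested genes. The count of members called was 2, Fgf18 and Fgfrl1, with DESeq2, with the replicate number as a block or without 2D replicate 4. Of all 11820 genes, DESeq2 called 871 lower and the block 742, against 401 in the main fit. Leaving out any 1 library gave fewer than the main fit. The count of members called was 0 without 3D replicates 1 and 2 and 2D replicate 2. There limma called 14 of all genes lower, and 980 had an unadjusted p under 0.05 and a lower 3D mean. Since the members were chosen with this contrast known, nothing is read from these counts. Scaled by total reads alone, all genes had a median log2 difference of 0.19, and the log2 differences were −3.17 for Fgf18, −0.64 for Fgfrl1, −0.40 for Fgfr3, −0.37 for Fgfr1 and 0.00 for Fgfr2. Relative to that median they were −3.36, −0.83, −0.59, −0.56 and −0.19.

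**Figure D1:**
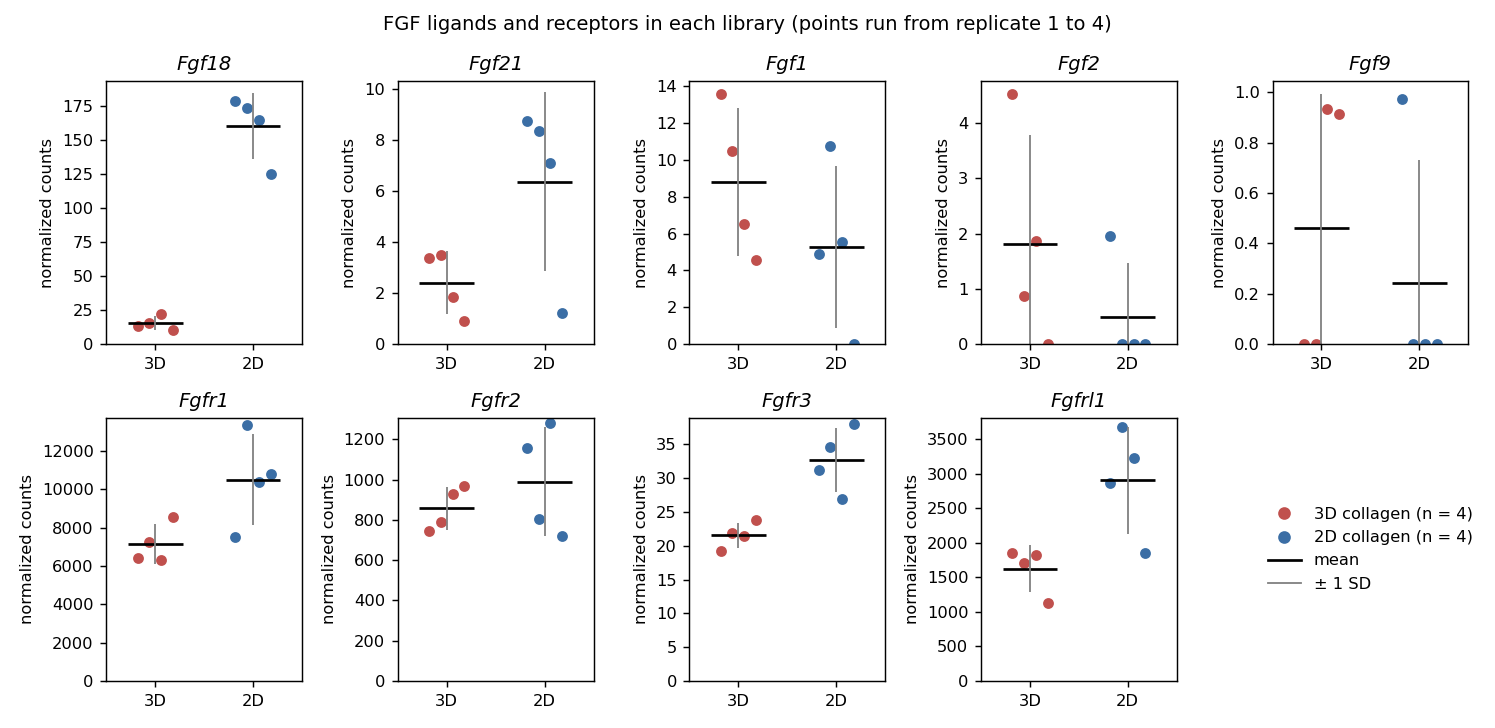
Normalized counts of 9 members in each library, by substrate on the horizontal axis (3D and 2D collagen, 4 libraries each), with the mean as a black bar and 1 SD as a grey line; Fgf13, at 0 reads in every library, is not drawn. Fgf18 sits at 10.1 to 22.4 on 3D collagen and at 125 to 178 on 2D collagen, and Fgfr2 overlaps between the groups.

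**Figure D2:**
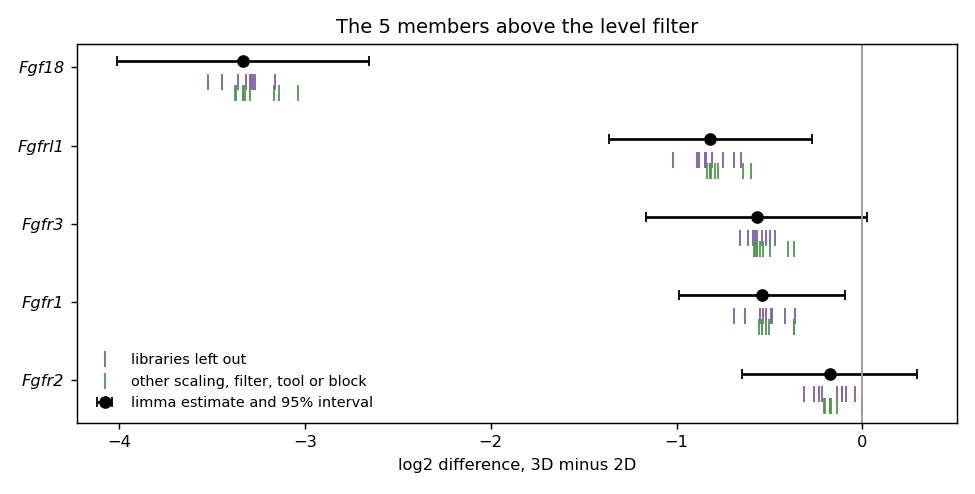
Log2 difference (3D minus 2D) of the 5 members above the level filter, with its 95% interval (black), the values with libraries left out (purple ticks) and the values under other scalings, filters, tools or a block (green ticks). Fgf18 lies at −3.33 with every alternative under −3, while the interval of Fgfr2 spans 0.

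The other 5 members had too few reads for a fold change. Fgf21 (chromosome 7, 45613890 to 45615490) had 3.40, 3.49, 1.87 and 0.914 normalized counts in the 3D libraries, from 10 reads in all, against 8.76, 8.36, 7.12 and 1.23 in the 2D libraries, from 26 reads. Of its 2D values 3 exceeded every 3D value, and 2D replicate 4 lay within the 3D range. Fgf2 (chromosome 3, 37348477 to 37410106), a broadly acting ligand made without a signal peptide, had 7 reads on 3D collagen, of which 4 were in replicate 1, and 2 reads on 2D collagen, both in replicate 1. Its antisense neighbour Nudt6 shares 9.44% of the exonic bases of Fgf2 and had 38.5 to 68.1 normalized counts on 3D collagen and 43.5 to 72.3 on 2D collagen, so these reads cannot be placed with certainty. Fgf9 (chromosome 14, 58070671 to 58112854), a ligand known from testis development, had 2 reads in the 3D libraries and 1 in the 2D libraries. Fgf13 (chromosome X, 59062139 to 59585572) had 0 reads in all 8 libraries, which at 3 reads allows a level of up to 0.141 to 0.171 CPM in the 3D libraries and 0.116 to 0.191 CPM in the 2D libraries (counting error only).

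Fgf1 (chromosome 18, 38838672 to 38929470), a ligand that binds all FGF receptors, had 13.6, 10.5, 6.53 and 4.57 normalized counts in 3D replicates 1 to 4, against 4.87, 10.8, 5.54 and 0 in 2D replicates 1 to 4. The 3 libraries over 10 were 3D replicates 1 and 2 and 2D replicate 2. The summed level of 10 intestine markers was 10.9, 8.34, 2.25 and 1.68 CPM in the 3D libraries and 1.67, 22.1, 2.98 and 3.19 CPM in the 2D libraries, and it was highest in those same 3 libraries. The sum of 9 liver markers was 26.2, 6.22, 1.31 and 0.434 CPM in the 3D libraries and 2.18, 22.4, 7.46 and 2.68 CPM in the 2D libraries. The hepatocyte gene Alb had 283 normalized counts in 3D replicate 1 and 307 in 2D replicate 2. In 3D replicate 3, where Fgf1 had 6.53, Alb and the brush border gene Fabp2 were at 0. The liver marker Fgb (19.6 normalized counts) and the intestine marker Vil1 (29.9) did have reads in that library. The part of liver and intestine transcripts in the Fgf1 values was not tested.

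**Figure D3:**
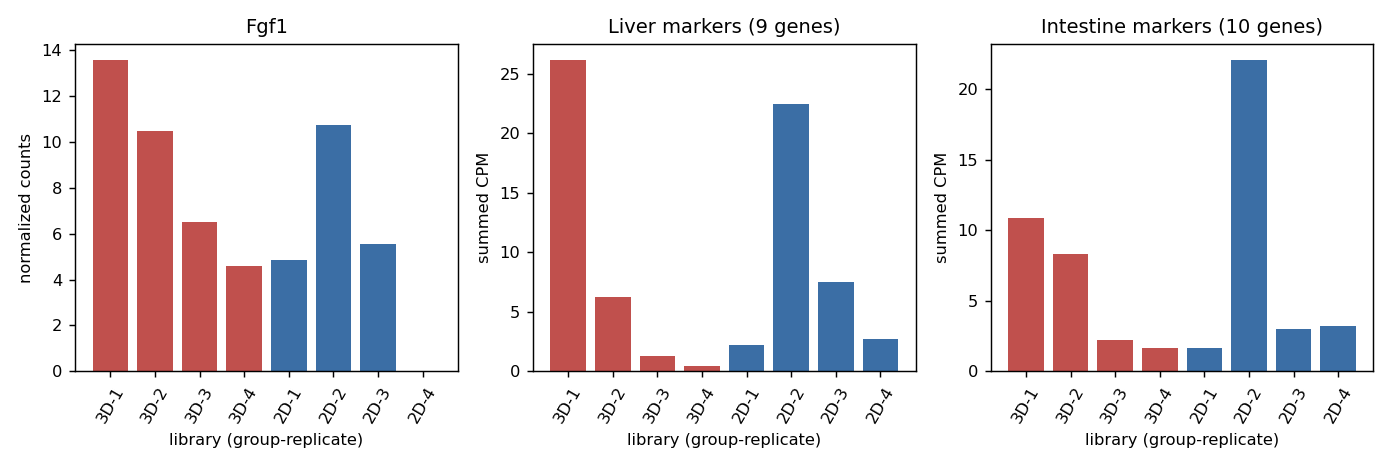
Fgf1 in normalized counts (left) and the summed CPM of 9 liver markers (middle) and 10 intestine markers (right) in each library, with 3D libraries in red and 2D libraries in blue. The 3 libraries with Fgf1 over 10 also have the 3 highest intestine sums.

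To set the members against each other, reads were scaled to CPM per kilobase of exonic length. On this scale Fgfr1 and Fgfrl1 led in both groups. Fgfr1 averaged 39.9 ± 8.24 CPM per kb on 3D collagen and 51.2 ± 8.19 on 2D collagen, and Fgfrl1 averaged 31.8 ± 5.36 on 3D and 50.2 ± 10.5 on 2D (SD, n = 4 each). Their ranges overlapped within each group, so their order is not resolved on this scale. Fgfr2 followed at 4.59 ± 0.874 on 3D and 4.70 ± 1.44 on 2D. Fgf18 averaged 0.713 ± 0.247 on 3D collagen, under the lowest 3D value of Fgfr2 (3.62), and 6.56 ± 0.987 on 2D collagen, where its range of 5.48 to 7.80 overlapped the 3.30 to 6.05 of Fgfr2. Fgfr3 was at 0.166 ± 0.0254 on 3D and 0.223 ± 0.0396 on 2D, and Fgf21 at 0.136 ± 0.0649 on 3D and 0.321 ± 0.177 on 2D, with overlapping ranges. Fgf1 was at 0.0863 ± 0.0341 on 3D and 0.0448 ± 0.0342 on 2D, Fgf2 at 0.0140 ± 0.0145 on 3D and 0.00373 ± 0.00746 on 2D, and Fgf9 at 0.00574 ± 0.00663 on 3D and 0.00272 ± 0.00544 on 2D. The ranges of Fgf1 and Fgf21 overlapped in both groups, as did those of Fgf2 and Fgf9. With the longest transcript in place of all exonic bases, Fgfr2 stood over Fgf18 on 2D collagen in the mean (11.0 and 7.17 CPM per kb). On that length Fgfr1 lay over Fgfrl1 in both groups without overlap. Fgfr1 had 63.8 to 101 CPM per kb on 3D and 77.6 to 112 on 2D. Fgfrl1 had 28.9 to 43.8 on 3D and 41.2 to 67.7 on 2D. The order of these 2 genes thus depends on the length used.

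Of the 4 receptor kinases, Fgfr4, which is not among the members, was also present, at 246 ± 53.5 normalized counts on 3D collagen and 310 ± 59.8 on 2D collagen (log2 difference −0.34, SE 0.23, limma adjusted p = 0.411). Summed per length, Fgfr1 made up 82.3 ± 1.97% of the 4 kinase genes on 3D collagen and 84.5 ± 3.41% on 2D collagen. Fgfr2 made up 9.51 ± 1.15% on 3D and 8.06 ± 3.31% on 2D, Fgfr4 7.89 ± 1.08% on 3D and 7.06 ± 1.12% on 2D, and Fgfr3 0.346 ± 0.0231% on 3D and 0.373 ± 0.0770% on 2D. The groups overlapped for each of these 4 shares. The ratio of Fgf18 to Fgfr3, which no scaling between libraries can alter, was 4.26, 4.34, 6.29 and 2.55 in the 3D libraries, against 34.5, 30.2, 36.9 and 19.8 in the 2D libraries. Counts per gene sum over splice forms, so the epithelial b forms and mesenchymal c forms of the receptors are not distinguished.

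**Figure D4:**
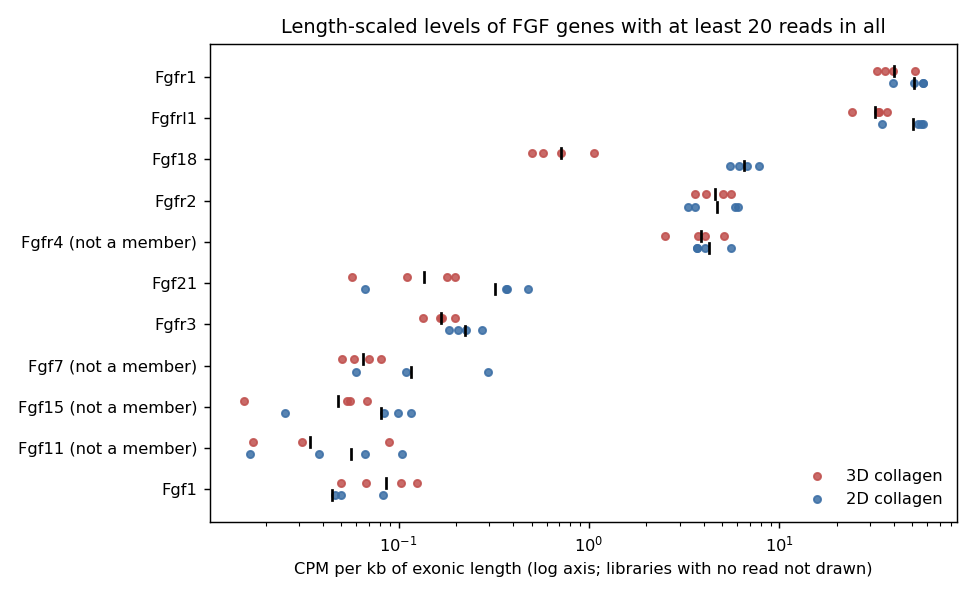
Levels of FGF family genes with at least 20 reads in all, in CPM per kb of exonic length on a log axis, 1 point per library, 3D in red above 2D in blue, with the group mean as a black tick. Fgfr1 and Fgfrl1 lie highest, and Fgf18 is the gene whose 3D and 2D points lie farthest apart.

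The 16 other FGF ligand genes gave little. Of them 8 had no read in any library, and each of the rest lay under the level filter. Fgf7, a stromal ligand of epithelial FGFR2, averaged 3.86 ± 0.909 normalized counts on 3D collagen and 7.29 ± 7.91 on 2D collagen. Fgf10, with a like role, averaged 0.953 ± 0.723 on 3D and 0.306 ± 0.613 on 2D. Of the co-receptors for hormone-like FGFs, Klb (beta-klotho) had 0 reads and Kl (klotho) had 2 reads, both in 2D libraries.

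Among the genes whose log2 values were most like those of Fgf18 over the 8 libraries were the chloride transporter Clcn6 (Pearson r = 0.992), the small GTPase Rasl11b (r = 0.991), Aif1l (r = 0.990) and the EGF receptor ligand Hbegf (r = 0.989). All 4 had groups that did not overlap, and a shared difference between the groups gives a high r by itself. With the group means removed, r to Fgf18 was 0.76 for Clcn6, 0.85 for Rasl11b, 0.70 for Aif1l and 0.67 for Hbegf. The genes were picked from all tested genes by r over these same libraries. That pick raises the r without group means too, so it is no separate check. Rasl11b averaged 471 ± 181 normalized counts on 3D collagen and 3125 ± 639 on 2D collagen, and Hbegf averaged 76.6 ± 19.1 on 3D and 451 ± 53.6 on 2D. Among the members, Fgfrl1 was most like Fgf18 (r = 0.85 over 8 libraries, 0.74 with group means removed), and both were lowest within each group in replicate 4. Fgfr3 had r = 0.84 with Fgf18 over all libraries and −0.39 with group means removed. Values of 1 library share its depth and RNA, and these r are given as a description.

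Genes around the members were taken from 9 lists written by role, with earlier results of these data known. Of their 135 measured genes 96 were tested, of which 5 rose and 7 fell on 3D collagen at a limma adjusted p under 0.05. These are 5.21% and 7.29% of the tested list genes, where 2.33% of all genes rose and 3.39% fell. The median log2 difference was −0.05 for the list genes and 0.02 for all genes.

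Of heparan sulphate co-receptors and enzymes, 3 of 19 tested genes fell (median log2 difference −0.38, 15 of 19 under 0). Ndst1, which adds N-sulphate groups to heparan sulphate, averaged 1017 ± 220 normalized counts on 3D collagen and 2534 ± 649 on 2D collagen (log2 difference −1.30, SE 0.22, limma adjusted p = 0.0129). Hs6st1, the 6-O-sulphotransferase, averaged 1227 ± 176 on 3D and 2811 ± 788 on 2D (log2 difference −1.17, limma adjusted p = 0.0179). Ext2, which extends the chain, averaged 3384 ± 173 on 3D and 4900 ± 282 on 2D (log2 difference −0.53, limma adjusted p = 0.0365). Both sulphate-adding enzymes had no 3D library over the lowest 2D library.

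In the cascade from receptor to ERK, 2 of 24 genes fell (median −0.15, 13 of 24 under 0). Of these, the phosphatase Ptpn11 (SHP2), which links FRS2 to RAS, averaged 3784 ± 271 normalized counts on 3D collagen and 5888 ± 820 on 2D collagen (log2 difference −0.63, limma adjusted p = 0.0381). Of feedback inhibitors and ERK-induced genes 1 of 19 rose and 1 fell (median 0.63, 14 of 19 over 0). The ERK phosphatase Dusp4 had 1610, 1869, 757 and 677 normalized counts in the 3D libraries, against 287, 465, 320 and 333 in the 2D libraries (log2 difference 1.69, limma adjusted p = 0.0258). Its 2 highest values were in 3D replicates 1 and 2, which also had the higher intestine sums of the 3D group. In 2D replicate 2, which had the highest intestine sum of all libraries (22.1 CPM), Dusp4 was at 465. The part of intestine transcripts in the Dusp4 values was not tested. The growth regulator Myc averaged 371 ± 51.3 on 3D and 801 ± 181 on 2D (log2 difference −1.09, limma adjusted p = 0.0192).

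Among carriers and partners of FGFs, 1 of 11 passed, Flrt3, a membrane protein that binds FGF receptors. It averaged 207 ± 60.7 normalized counts on 3D collagen and 49.0 ± 30.9 on 2D collagen (log2 difference 2.30, limma adjusted p = 0.0385). The 2 most abundant genes of that list, Lrrc59, which takes part in the nuclear import of FGF1, and Api5, an intracellular FGF2 partner, had log2 differences of −0.51 and −0.22 (limma adjusted p = 0.133 and 0.488). Of 6 splicing factors 1 passed, Esrp2, which favours the epithelial b form of Fgfr2. It averaged 124 ± 18.8 on 3D and 276 ± 65.3 on 2D (log2 difference −1.14, limma adjusted p = 0.0258), with 2D replicate 2 highest at 373. The splicing repressor Ptbp1 and Rbfox2 had log2 differences of −0.55 and −0.25 (limma adjusted p = 0.173 and 0.274).

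Integrated stress response genes, a group to which Fgf21 belongs in liver, rose in 3 of 13 (median −0.30, 7 of 13 under 0, 6 over 0). Under 0, and named after their values were seen, were Chac1 (−1.08), Trib3 (−0.75), Asns (−0.50) and Atf4 (−0.30). None of these passed (limma adjusted p from 0.0922 to 0.427). Ddit3 (CHOP) averaged 568 ± 64.2 normalized counts on 3D collagen and 280 ± 72.0 on 2D collagen (log2 difference 1.05, limma adjusted p = 0.0296). The cystine transporter Slc7a11 averaged 319 ± 188 on 3D and 75.6 ± 32.2 on 2D (log2 difference 1.95, limma adjusted p = 0.0425), and Ddit4, an inhibitor of mTORC1, 2355 ± 655 on 3D and 1016 ± 420 on 2D (log2 difference 1.25, limma adjusted p = 0.0429). Slc7a11 had 410, 540, 169 and 157 normalized counts in the 3D libraries, against 60.4, 47.8, 72.8 and 121 in the 2D libraries. As for Dusp4, the 2 highest values were in 3D replicates 1 and 2. The lowest of all (47.8) was in 2D replicate 2, which had the highest intestine sum. The part of intestine transcripts in the Slc7a11 values was not tested. Without 3D replicates 1 and 2 and 2D replicate 2 the log2 difference of Slc7a11 was 1.00 (limma adjusted p = 0.279). Fgf21 stood at 0.914 to 3.49 on 3D and 1.23 to 8.76 on 2D in the same libraries. Of the sodium channel genes and other partners of FGF13, 3 of 14 were tested, among them Scn2a1 with a log2 difference of 0.34 (limma adjusted p = 0.640).

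**Figure D5:**
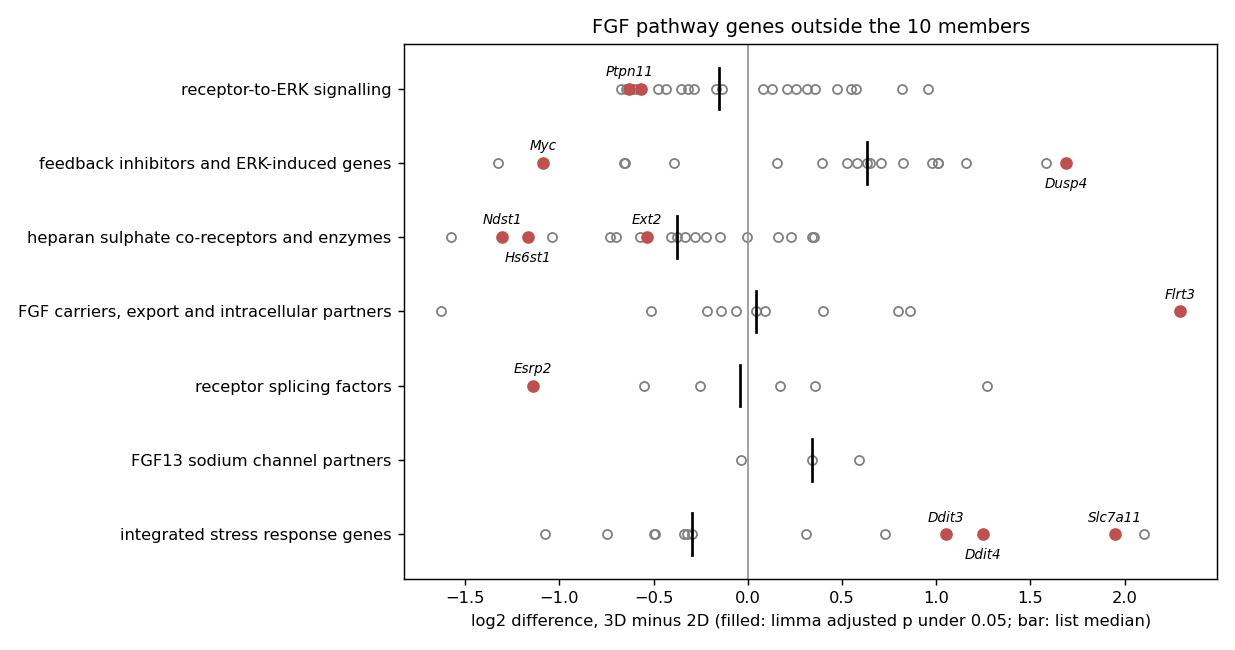
Log2 difference (3D minus 2D) of each tested gene in 7 lists around the FGF members; filled points passed a limma adjusted p of 0.05, open points did not, the black bar is the list median, and called genes described in the text are labelled. Ndst1, Hs6st1, Ext2, Ptpn11, Myc and Esrp2 lie under 0, and Dusp4, Flrt3, Ddit3, Slc7a11 and Ddit4 over 0.

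The calls on these list genes depended on single libraries. Leaving out 3D replicate 1 or 3D replicate 2 gave 0 higher and 2 lower list genes each, and leaving out 3D replicate 3 gave 0 of either kind. Omitting 3D replicate 4 gave 4 higher and 3 lower, and omitting 2D replicate 3 gave 0 higher and 3 lower. With 2D replicate 1 omitted the counts were 2 higher and 6 lower, and with 2D replicate 4 omitted they were 3 higher and 8 lower. At an unadjusted limma p under 0.05 there were still 11 higher and 15 lower when 3D replicate 3 was omitted. The unadjusted counts of higher genes were 12 for 3D replicate 1 omitted, 10 for 3D replicate 2 and 15 for 2D replicate 3. All 12 called genes kept their direction in every alternative run. The call of Ndst1 ended when 3D replicate 3 was omitted (limma adjusted p = 0.0562). That of Hs6st1 ended with 3D replicate 2 omitted (limma adjusted p = 0.0600) or 3D replicate 3 (0.0665), and that of Myc with 3D replicate 1 omitted (0.0630) or 3D replicate 3 (0.0779). Those of Ptpn11 (limma adjusted p from 0.0521 to 0.144), Ext2 (0.0519 to 0.123), Flrt3 (0.0793 to 0.117), Esrp2 (0.0545 to 0.0976) and Ddit3 (0.0552 to 0.117) each ended on omitting any 1 of the 3D libraries, and for some 2D libraries too. Those of Dusp4, Slc7a11 and Ddit4 ended on omitting any of 3D replicates 1 to 3 or 2D replicates 1 and 3, among others (limma adjusted p from 0.0532 to 0.125). Scaled by total reads alone, the calls of Ptpn11 (limma adjusted p = 0.0537) and Ext2 (0.0727) ended. Without the level filter those of Ptpn11 (limma adjusted p = 0.0546) and Ext2 (0.0605) ended, and with the GC trend removed that of Slc7a11 (0.0784). Without the 3 libraries with the most intestine transcripts, an alternative chosen after seeing the data, all 12 calls ended (limma adjusted p from 0.0715 to 0.279).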

How the data were processed

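RNA-seq of 8 libraries was analysed. The authors deposited 1 normalized signal per gene and library. Per the submitters' processing notes, HTSeq 0.6.1p1 counted reads on mm10 and DESeq2 was used; the sources used here do not name the aligner, annotation, strand setting or filters. All values (100%) were whole multiples of 1 read's worth within 0.001 reads, and the divisors equalled the size factors computed by the median-of-ratios method to within 3.4e-09, so reads were recovered. The main test was limma 3.58.1 (in R 4.3.3), run with trended, robust variance on log2(normalized count + 1) over genes with at least 10 in 4 libraries, with Benjamini-Hochberg adjustment and threshold 0.05. Differences on this scale understate those of low genes. edgeR 4.0.16 and DESeq2 1.42.0 on recovered reads were alternatives, beside other scalings, pseudocounts (0.5 and 5), filters, GC correction (lowess, span 30%), a replicate block and leaving out libraries. Lengths came from GENCODE M21, positions and promoters from RefSeq GRCm38.p6. The fit was tested on simulated data. The members and lists were chosen with earlier results of these data known. Named genes are the members, up to 4 called genes per list by smallest adjusted p (the 2 most abundant where fewer than 2 passed), 10 fixed genes and the 5 most like Fgf18. Intervals cover counting error or spread between libraries only. Some genes that this rule names are not reported here.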

Additional observations from a re-analysis of the deposited data

Results flagged for a closer look

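Single libraries stood apart from the other 3 of their group for 8 values, among 86 groups of 4 examined by Dixon's test, which flags about 1 in 20 groups by chance. Among the members, 2D replicate 1 was the only 2D library with reads for Fgf2 (1.95 normalized counts) and for Fgf9 (0.974), each at or under 2 reads. Fgf10 had 1.23 in 2D replicate 4 and 0 in the other 2D libraries. A single value over 0 beside zeros is always flagged, so the rate by chance does not apply to Fgf2, Fgf9 and Fgf10. Nudt6, the antisense neighbour of Fgf2, was lowest on 3D collagen in replicate 1 at 38.5, where the others had 63.7 to 68.1. Myc was highest on 3D collagen in replicate 2 at 448, where the others had 340 to 352. Esrp2 was highest on 2D collagen in replicate 2 at 373, where the others had 229 to 252. Of the genes most like Fgf18, Rasl11b was highest on 3D collagen in replicate 3 at 741 (others 354 to 408), where Fgf18 was also highest on 3D. Aif1l was lowest on 2D collagen in replicate 4 at 33190 (others 37580 to 38290), where Fgf18 was also lowest on 2D. Both genes were picked for likeness to Fgf18 in these libraries, so nothing is read from these shared extremes.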

How the results depend on the processing

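The log2 differences of the 5 fitted members kept their sign under all alternatives that gave a value, and moved by less than the spread between replicates except for Fgfr3 with the GC trend removed (−0.37). Leaving out 1 library gave −3.52 to −3.16 for Fgf18, −1.02 to −0.65 for Fgfrl1, −0.69 to −0.41 for Fgfr1, −0.66 to −0.49 for Fgfr3 and −0.32 to −0.04 for Fgfr2. Over all genes 275 were higher and 401 lower. These counts were 496 and 318 with library size scaling, 708 and 871 with DESeq2, 482 and 605 with the GC trend removed, and 42 to 267 and 105 to 360 with 1 library left out. Pathway genes (5 higher, 7 lower) numbered 10 and 16 with DESeq2, and 0 to 5 and 0 to 8 with 1 library left out. With the replicate number as a block, 663 genes were higher and 742 lower, and 16 pathway genes were lower. The block ended the call of Slc7a11 (limma adjusted p = 0.0663), and under it Ptbp1 was called lower. Fgfrl1 was also called lower, but the members were chosen with this contrast known, so nothing is read from that call. Same-numbered libraries did not all deviate together (r from −0.17 to 0.81, and 3 of 4 3D libraries correlated best with their own number), so the number is not taken as a pairing. Without 3D replicates 1 and 2 and 2D replicate 2 together, an alternative chosen after seeing the data that leaves 2 and 3 libraries, limma called 0 genes higher and 14 lower, and 0 pathway genes higher and 0 lower (8 and 19 at an unadjusted p under 0.05). The causes were not tested. Depth limits Fgf1, Fgf2, Fgf9, Fgf13 and Fgf21, each with under 60 reads in all.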
